A study of Mus musculus with 4 samples.

Results

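The miRNA content of Hca-F, a mouse hepatocarcinoma line described in the labels as having a higher ability to spread to lymph nodes, was set against that of Hca-P, its counterpart with a lower ability. Of the 414 mouse miRNAs that the array could name, the 85 with a background-subtracted intensity of 50 units or more in either line were compared: 64 in both lines, 10 in Hca-F only and 11 in Hca-P only. Both lines derive from H22, a suspension line with no lymphatic metastasis, and like it grow in suspension; the remaining line of the study, Hepa1-6, is adherent and also has none. Hca-F and Hca-P cells were put into the abdominal cavity of 615 mice and left there for about 7 days, and the cells recovered from the ascites were then cultured in RPMI-1640 with fetal bovine serum, whereas Hepa1-6 was kept in DMEM. No line was treated. Each line is 1 sample read on 1 array, so every difference below compares those arrays, has no replicate check and carries no p-value.

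A miRNA is a short RNA that guides an Argonaute protein to messenger RNAs and lowers their output, and bases 2 to 8 of its mature form, the seed, do most of the pairing. Mature miRNAs are cut from hairpins, which are often encoded in clusters and transcribed together, so neighbours can share their transcription while differing in processing and stability. The let-7 family is abundant in differentiated cells, where it represses RAS, HMGA2 and LIN28 transcripts, and its loss is frequent in tumours including hepatocellular carcinoma. The miR-17 family is induced by MYC and favours proliferation and survival in many tumours.

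The mature sequences of the families that the comparison turns on, from RefSeq (GRCm38.p6), follow 5′ to 3′ with the seed in capitals. The first 8 are the let-7 miRNAs, shown because members that share 1 seed lay far apart in this comparison.
let-7a: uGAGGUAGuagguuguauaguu
let-7d: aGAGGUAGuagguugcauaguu
let-7i: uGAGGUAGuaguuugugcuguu
let-7c: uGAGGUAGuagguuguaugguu
let-7b: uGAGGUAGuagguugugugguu
let-7e: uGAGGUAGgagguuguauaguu
let-7f: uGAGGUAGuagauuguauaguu
let-7g: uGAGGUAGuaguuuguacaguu
The next 6 are of the miR-17 clusters, in which miR-17, miR-20a, miR-106b and miR-93 share a seed, miR-18a has a near relative of it and miR-19b has its own.
miR-17: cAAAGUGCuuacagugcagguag
miR-20a: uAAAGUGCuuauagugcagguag
miR-106b: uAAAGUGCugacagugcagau
miR-93: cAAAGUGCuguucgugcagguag
miR-18a: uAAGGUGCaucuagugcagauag
miR-19b: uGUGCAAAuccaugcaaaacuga
The last 8 are the other miRNAs 2-fold or more below Hca-P, then the miRNAs that kept a 2-fold excess in Hca-F under every scaling tried, and miR-34a.
miR-23a: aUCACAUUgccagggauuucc
miR-22: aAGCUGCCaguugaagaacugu
miR-130a: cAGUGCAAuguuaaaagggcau
miR-763: cCAGCUGGgaagaaccaguggc
miR-713: uGCACUGAaggcacacagc
miR-340-5p: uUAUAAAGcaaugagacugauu
miR-688: uCGCAGGCgacuacuuauuc
miR-34a: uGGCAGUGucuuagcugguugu
Counting from 1 at the 5′ end, let-7c differs from let-7a by A19G, let-7f by G12A and let-7e by U9G. let-7b (A17G and A19G) and let-7d (U1A and U16C) are nearly as close to let-7a, and let-7i is the most distant of those compared (G12U, A17G, U18C and A19U). Within the other family, miR-20a differs from miR-17 by C1U and C12U. Probe sequences were not used here, so capture of one such miRNA by the probe of another cannot be told apart from its own signal.

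Levels are normalized intensities, in which 1 is the median of the array's 65 reference probes; a level of 1 corresponds to 324.5 background-subtracted units in Hca-F and 396.25 units in Hca-P. The error given with a level is the SD over the 4 spots of its probe. A value under 50 units (a level of 0.154 in Hca-F and 0.126 in Hca-P) was raised to 50, so the fold is then a lower bound, written "at least". For miR-103 and miR-142-5p, which only Hca-P measured, even this bound has no size, because their level in Hca-P lay under the floor of Hca-F. The 85 empty positions reached at most 7.75 units in Hca-F and 2 units in Hca-P, and the 80 spike control positions at most 19 and 18 units.

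The arrays of Hca-F and Hca-P shared more than their design. The 160 spots named after the dye Hy3 read between 10501 and 16652 units in Hca-F and between 10505 and 16656 units in Hca-P, and spot by spot they differed by a median of 4 units and by at most 20 units. The arrays of H22 and Hepa1-6 agreed as closely in these spots (median difference 3 units), whereas across the pairs the median difference was 1026 to 1032.5 units. At 256 spots of mouse probes the median difference between Hca-F and Hca-P was 122 units, so the probe values themselves were not identical. Whether they share a part was not tested. The deviations of single spots from their probe's mean also correlated between Hca-F and Hca-P (r = 0.69 over 328 probes, a description). Between H22 and Hepa1-6 this r was 0.73, and across the pairs it was 0.15 to 0.28. Folds were therefore also taken spot by spot at matched positions, where the median SD of the log2 fold was 0.25 over the 64 miRNAs measured in both lines, against 0.46 with spots unmatched. The reason for the shared values was not tested.

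Of the 85 miRNAs, 31 (36.5%) were 2-fold or more apart: 20 (23.5%) were higher and 11 (12.9%) lower in Hca-F. The other 54 were under 2-fold or had only a bound below it. The log2 fold of Hca-F over Hca-P had a median of 0.45 and quartiles of −0.50 and 0.96, and it ran from −3.44 to 1.70. The lower side had the longer tail, since 4 miRNAs lay 3-fold or more below Hca-P and 1 lay 3-fold or more above it. Because the middle of the distribution is itself above 0, a 2-fold distance from that middle was reached by 4 miRNAs on the higher side and 20 on the lower side. All 17 miRNAs measured in both lines and 2-fold higher were higher at each of the 4 spot positions, and all 7 measured in both and 2-fold lower were lower at each. Their choice by the mean of these same spots fixes this in part, and miRNAs under 2-fold, such as miR-720 and miR-690, did so too. Of these 24, 19 had a log2 fold beyond 2 SDs of its spot-by-spot values. Many measured miRNAs under 2-fold did as well, among them miR-689, miR-711, let-7c and miR-206, so this is not particular to the 24. Spots of the arrays did not overlap for 15 of the 17, 6 of the 7 and 32 of all 64 measured in both.

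**Figure D1:**
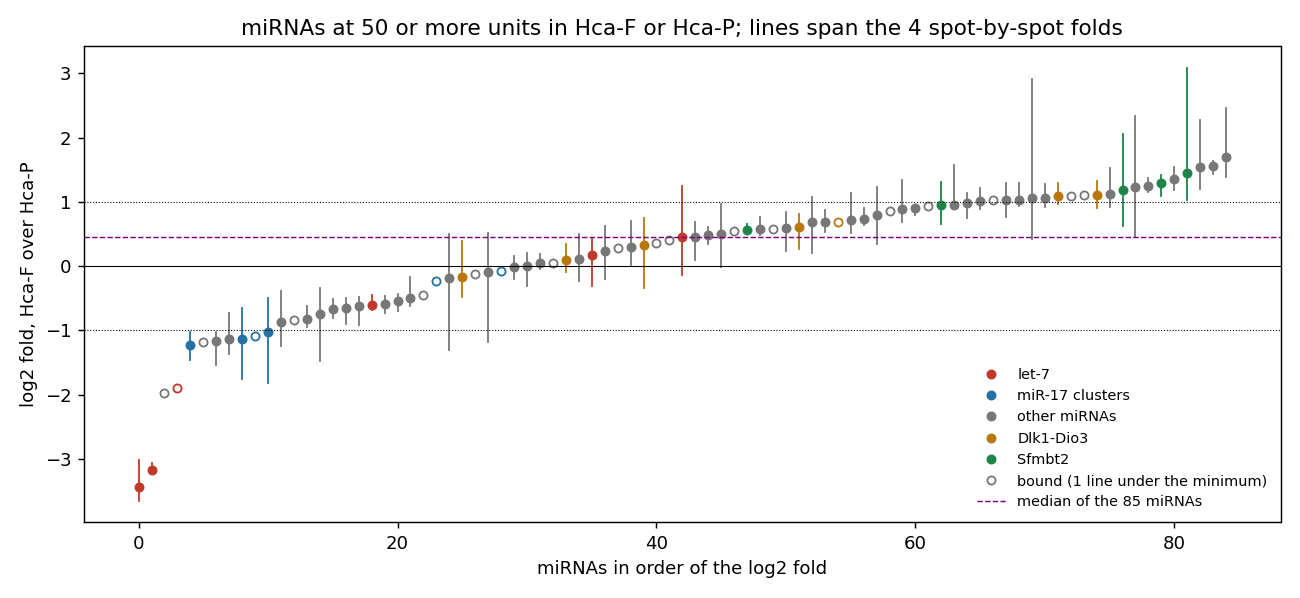
Log2 fold of Hca-F over Hca-P (y axis) for the 85 miRNAs in order of the fold (x axis); points are folds of the 4-spot means, lines span the 4 spot-by-spot folds, and open points are bounds. let-7a and let-7d lie apart from the rest at −3.44 and −3.17, and the dashed median lies at 0.45.

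The largest differences of the comparison lay in the let-7 family, in part of its members. let-7a, the founding family member, had spot levels of 0.425, 0.456, 0.573 and 0.444 in Hca-F, against 5.21, 5.71, 4.63 and 5.05 in Hca-P. The mean was 0.475 ± 0.0670 in Hca-F and 5.15 ± 0.448 in Hca-P (log2 fold −3.44, or 10.9-fold lower, with an SD of 0.29 over spots). The spots of the arrays did not overlap, and each position was lower in Hca-F by 3.01 or more on the log2 scale. let-7d, encoded beside it, had levels of 0.438 ± 0.0452 in Hca-F and 3.96 ± 0.403 in Hca-P (log2 fold −3.17, or 9.03-fold lower, SD 0.076). let-7i was not measured in Hca-F, where its spots read 30, 29, 40 and 22 units, against 238, 215, 218 and 236 units in Hca-P, and was at least 3.71-fold lower. These 3 miRNAs were the family's whole 2-fold set.

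The other let-7 miRNAs with signal stood within 2-fold of Hca-P. let-7c, 1 base from let-7a, had a level of 3.42 ± 0.609 in Hca-F and 5.19 ± 0.483 in Hca-P (log2 fold −0.60), with all 4 spots lower. let-7b had a level of 3.24 ± 0.750 in Hca-F and 2.86 ± 0.168 in Hca-P (log2 fold 0.18), and its spots overlapped. let-7e, the dimmest of the 3 with levels of 0.572 ± 0.268 in Hca-F against 0.420 ± 0.297 in Hca-P, gave a log2 fold of 0.45 that its spots did not settle, with 1 of 4 going the other way. let-7f, let-7g and miR-98 were under the minimum in both lines, with 6.25, 4.5 and 11.2 units in Hca-F and 12.8, 14.5 and 23.5 units in Hca-P. Of 9 let-7 family probes, 6 were thus compared, 3 were 2-fold lower, where 12.9% of all 85 were, and 0 higher, with a median log2 fold of −1.25 beside 0.45 over all 85. The summed level of the family's 9 probes was 8.30 in Hca-F and 18.3 in Hca-P, and in Hca-F let-7b and let-7c made up most of it. The 6 let-7 miRNAs compared carry the same seed, and their log2 folds still ran from −3.44 to 0.45. Over the 5 other scalings the family median lay between −1.75 and −1.18, while let-7b (−0.32 to 0.25) and let-7e (−0.05 to 0.51) lay on either side of 0.

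**Figure D2:**
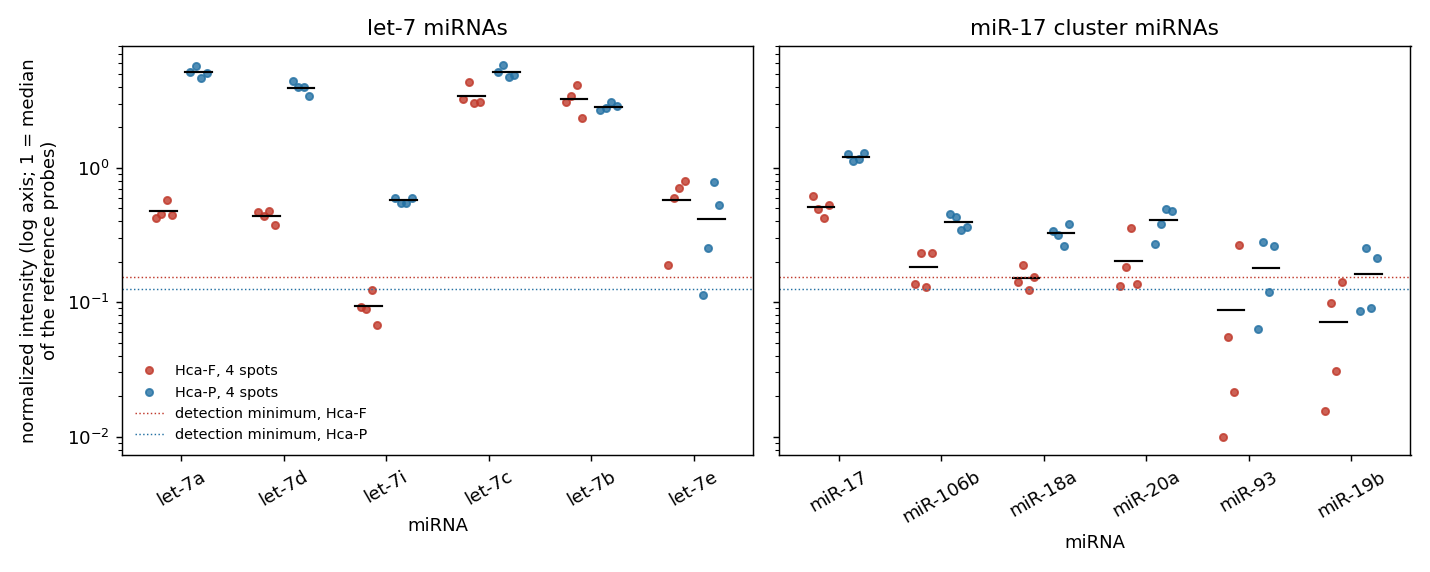
Normalized intensity (log axis) of each of the 4 spots in Hca-F and Hca-P for let-7 miRNAs (left panel) and miR-17 cluster miRNAs (right panel), with bars at the mean and dotted lines at the detection minimum of each array. let-7a, let-7d and let-7i separate fully, let-7b and let-7e overlap, and miR-17 separates fully while miR-93 and miR-19b scatter around the minimum.

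A pair of control positions was lower in Hca-F by as much as let-7a or had only a bound. The array carries 12 positions named only as internal controls, with no statement of what they hold in the sources used here. One of them had a level of 0.343 ± 0.224 in Hca-F and 4.00 ± 1.97 in Hca-P, and another read 6.25 units in Hca-F and 475 units in Hca-P. No fold of them was counted among the miRNAs. The brightest such position in Hca-F was near equal, with levels of 3.18 in Hca-F and 2.78 in Hca-P.

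The miR-17 clusters gave 6 miRNAs that could be compared, of which 4 passed 2-fold on the lower side, beside 12.9% of all 85, and 0 on the higher side. The clusters are miR-17-92, its paralogue miR-106a-363 and miR-106b-25, with 12 probes on the array. miR-17 read 200, 159, 137 and 172 units in Hca-F, against 498, 442, 458 and 512 units in Hca-P. Its level was 0.515 ± 0.0811 in Hca-F and 1.21 ± 0.0831 in Hca-P (log2 fold −1.23, SD 0.18), with no overlap of the spots. miR-106b had levels of 0.182 ± 0.0570 in Hca-F and 0.398 ± 0.0536 in Hca-P (log2 fold −1.13). miR-20a, which differs from miR-17 by a pair of bases, had levels of 0.201 ± 0.105 in Hca-F and 0.408 ± 0.103 in Hca-P (log2 fold −1.02), and here 1 spot of Hca-F overlapped Hca-P. miR-18a was just under the minimum in Hca-F at 49.2 units and read 129 units in Hca-P, and was at least 2.11-fold lower.

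The dimmer miRNAs of these clusters gave bounds too small to read. miR-93 read 28.5 units in Hca-F and 71.8 units in Hca-P, at least 1.18-fold lower, and miR-19b 23.2 and 64.0 units, at least 1.05-fold lower. The other 6 probes (miR-19a, miR-92a, miR-106a, miR-20b, miR-363 and miR-25) were under the minimum in both lines. At 1 of 4 spots miR-93 was higher in Hca-F, and under other settings its log2 fold reached 0.11 and that of miR-19b 0.29. The median log2 fold of the 6 compared was −1.05, beside 0.45 over all 85. Bounds enter these medians at their floor, and over the 5 other scalings the median lay between −1.55 and −0.98.

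A further group of lower miRNAs came from other families. miR-23a, a miRNA of the miR-23a, miR-27a and miR-24 cluster, read 30, 59, 79 and 27 units in Hca-F, against 189, 269, 265 and 234 units in Hca-P, and was at least 3.92-fold lower. Its spots did not overlap, although the Hca-F mean of 48.8 units lay just under the minimum. miR-24 of the same cluster was at least 1.36-fold lower, with 28.2 units in Hca-F and 83.2 units in Hca-P, and miR-27a just missed the minimum with 18.5 units in Hca-F and 49.5 units in Hca-P. miR-22 was at least 2.27-fold lower, reading 26.2 units in Hca-F against 138.5 units in Hca-P. miR-130a had levels of 0.219 ± 0.0428 in Hca-F and 0.482 ± 0.145 in Hca-P (log2 fold −1.14). miR-763 completed the set, with levels of 0.305 ± 0.0846 in Hca-F and 0.682 ± 0.161 in Hca-P (log2 fold −1.16). miR-23a, miR-24, miR-22, miR-130a and miR-763 were each lower in Hca-F at all 4 spot positions.

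Several more miRNAs, some of them bright, were lower by less than 2-fold or had only a bound below it. miR-689 had levels of 11.2 ± 0.584 in Hca-F and 19.8 ± 0.984 in Hca-P (log2 fold −0.82), and miR-711 of 16.4 ± 1.45 and 26.2 ± 2.97 (log2 fold −0.67). Neither overlapped between the arrays, so their differences exceed the spot spread while staying under the threshold. miR-762 had levels of 3.51 ± 0.193 in Hca-F and 5.41 ± 0.794 in Hca-P (log2 fold −0.63), also without overlap. miR-675-5p, made from the imprinted H19 transcript, lay closest below the threshold with 0.734 ± 0.256 in Hca-F and 1.34 ± 0.604 in Hca-P (log2 fold −0.86), and its spots overlapped. miR-222, reported to promote invasion, was at least 1.78-fold lower, reading 22 units in Hca-F against 109 units in Hca-P.

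Among the 20 higher miRNAs, 3 held their 2-fold excess under each of the 5 other scalings, and none of these is bright. miR-713 had spot levels of 0.669, 0.361, 0.616 and 0.613 in Hca-F, against 0.245, 0.106, 0.235 and 0.111 in Hca-P. The mean was 0.565 ± 0.138 in Hca-F and 0.174 ± 0.0759 in Hca-P (log2 fold 1.70, or 3.24-fold, SD 0.49). It was the one miRNA 3-fold or more higher. miR-340-5p, reported to restrain migration of breast cancer cells, had spot levels of 0.450, 0.518, 0.481 and 0.564 in Hca-F, against 0.167, 0.172, 0.154 and 0.194 in Hca-P. Its log2 fold of 1.55 was the most even over spots of the 17 measured higher ones, with an SD of 0.090. miR-688 had levels of 0.485 ± 0.123 in Hca-F and 0.167 ± 0.0343 in Hca-P (log2 fold 1.54). All 3 were between 66.2 and 69.0 units in Hca-P, close above the minimum.

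The brightest miRNA of Hca-F was on the higher side as well. miR-709, a nuclear mouse miRNA reported to act on the miR-15a and miR-16 precursor, read 9297, 10083, 9580 and 7343 units in Hca-F, against 3902, 4294, 5170 and 3869 units in Hca-P. Its level was 28.0 ± 3.70 in Hca-F and 10.9 ± 1.53 in Hca-P (log2 fold 1.36, SD 0.19). miR-691 followed with levels of 4.36 ± 0.863 in Hca-F and 1.83 ± 0.386 in Hca-P, which is 2.38-fold apart with an SD of 0.097 on the log2 scale. Both were separated at every spot. By contrast, miR-678 (log2 fold 1.23), miR-669c (1.45) and miR-710 (1.05) had spot SDs of 0.84, 0.94 and 1.09, so their single folds are poorly fixed. For miR-669c, 1 of the 4 spots in Hca-P had a level of 0.0808 while the others had 0.353 to 0.492.

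miR-34a, which p53 induces and which restrains growth and invasion, had spot levels of 1.12, 1.11, 1.17 and 0.888 in Hca-F, against 0.462, 0.568, 0.560 and 0.469 in Hca-P. The mean was 1.07 ± 0.126 in Hca-F and 0.515 ± 0.0570 in Hca-P (log2 fold 1.06, SD 0.16), without overlap. Its relative miR-34c was measured only in Hca-F, at 52.8 units against 36.2 units in Hca-P, at least 1.29-fold higher. That value rests on 1 of 2 probes of the name, and the other read 7.25 units in Hca-F and 5.50 units in Hca-P. Over the 5 other scalings the log2 bound of miR-34c ran from −0.13 to 0.43, on both sides of 0. miR-34b-5p and miR-449a were under the minimum in both lines.

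The repeat-rich miRNA cluster in an intron of Sfmbt2, which encodes the miR-297, miR-466, miR-467 and miR-669 families, had 8 probes on the array. Of these, 5 were compared, and 3 were 2-fold higher, where 23.5% of all 85 were, and 0 lower, with a median log2 fold of 1.19 beside 0.45 over all 85. The probe shared by miR-467a* and miR-467d* had levels of 0.686 ± 0.235 in Hca-F and 0.281 ± 0.109 in Hca-P (log2 fold 1.29, SD 0.15). miR-669a and miR-669c had log2 folds of 1.19 (SD 0.61) and 1.45 (SD 0.94), neither beyond 2 SDs of its spots. miR-467b* had one of 0.96 (SD 0.30) and the miR-466d-3p probe one of 0.57 (SD 0.068). This last probe's name carries a suffix that no source used here explains. Over the 5 other scalings the median lay between 0.69 and 1.26, and with all capture probes as reference none of the 3 stayed 2-fold higher (0.79 for miR-467a* and miR-467d*, 0.69 for miR-669a and 0.95 for miR-669c). These families have near-identical copies, so their probes may share signal. The guide-named miR-467b probe was under the minimum in both lines.

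The imprinted Dlk1-Dio3 region of chromosome 12 encodes the largest group on the array, 46 probes, of which 39 were under the minimum in both lines. Of the 7 compared, 2 were 2-fold higher, a share near the 23.5% of all 85, and 0 lower, and the median log2 fold of 0.60 stood near the 0.45 of all 85, with 0.06 to 0.67 over the 5 other scalings. miR-667 had levels of 3.94 ± 0.615 in Hca-F and 1.83 ± 0.424 in Hca-P (log2 fold 1.11), and miR-329 of 0.821 ± 0.211 and 0.385 ± 0.118 (log2 fold 1.09). miR-494, the brightest of the region, had levels of 8.53 ± 1.90 in Hca-F and 5.61 ± 1.32 in Hca-P (log2 fold 0.60), and miR-382 was at least 1.62-fold higher. miR-668 was near equal, with 2.29 ± 0.353 in Hca-F and 2.13 ± 0.579 in Hca-P. miR-770-3p and miR-370 had log2 folds of 0.33 and −0.18 with overlapping spots, and miR-668 and miR-770-3p went below 0 when all capture probes set the scale (−0.40 and −0.17).

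The rest of the higher set had no common family. miR-184 had levels of 2.05 ± 0.586 in Hca-F and 1.00 ± 0.182 in Hca-P (log2 fold 1.03), miR-452 of 5.69 ± 2.30 and 2.78 ± 1.21 (1.03), and miR-693-5p of 0.504 ± 0.112 and 0.230 ± 0.0110 (1.13). The levels of miR-452 overlapped between the arrays, while its spot-by-spot log2 fold had an SD of 0.16. Spot deviations correlate between these arrays for a reason not tested, so this SD does not give the precision of a difference between lines. Hca-F alone measured miR-490 (higher by at least 2.15-fold), miR-214 (2.14-fold) and miR-761 (2.03-fold). miR-214 and miR-761 share the seed CAGCAGG and read 87.5 and 83.2 units in Hca-F, against 27.5 and 41.8 units in Hca-P. Further miRNAs measured only in Hca-F had bounds under 2-fold, among them miR-207 (at least 1.81-fold), miR-500 (1.5-fold) and miR-697 (1.46-fold).

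miR-183*, the passenger arm of the miR-183 hairpin, was measured in both lines while its partner was not. It had levels of 4.03 ± 0.164 in Hca-F and 1.99 ± 0.162 in Hca-P (log2 fold 1.02, SD 0.14), while the probe for miR-183 itself, often raised in hepatocellular carcinoma, read 8.50 units in Hca-F and 18.8 units in Hca-P. The partner arms of miR-467b*, miR-200b*, miR-99b* and miR-712* were also under the minimum in both lines. For let-7d, let-7i, miR-17, miR-18a, miR-22, miR-93, miR-106b, miR-214 and miR-7a the starred arm was the one under the minimum in both lines, so a fold could be read for 1 arm only in each of these 14 hairpins. Levels of partner arms were not compared with each other, as they come from different probes. Rankings and summed levels elsewhere in the text take the probe levels as read.

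A set of 11 miRNAs measured in both lines had a log2 fold within 0.32 of 0. The brightest was miR-320, a miRNA made without Drosha, with levels of 13.1 ± 1.96 in Hca-F and 13 ± 1.93 in Hca-P. Its spot-by-spot log2 fold was 0.01 with an SD of 0.24. miR-129-5p had levels of 3.96 ± 0.314 in Hca-F and 3.98 ± 0.724 in Hca-P (log2 fold −0.01, SD 0.15). miR-705, at 0.714 ± 0.0416 and 0.694 ± 0.0650, was the tightest of the dimmer ones (log2 fold 0.04, SD 0.11). These values are near each other on the authors' scaling, and over the 5 other scalings their log2 folds took both signs. As the factors of the arrays differ 1.22-fold, the units before scaling were 4251 in Hca-F and 5163 in Hca-P for miR-320, and 1284 and 1576 for miR-129-5p.

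The overall makeup of the signal was alike. The 8 brightest miRNAs took 61.8% of the summed level of the 85 in Hca-F and 60.9% in Hca-P, and 6 of them were the same: miR-709, miR-298, miR-711, miR-320, miR-689 and miR-494. miR-709 led in Hca-F and miR-711 in Hca-P. miR-185 (7.08 ± 3.86 in Hca-F and 3.78 ± 2.01 in Hca-P) and miR-452 were among the 8 in Hca-F only, and miR-762 and miR-690 in Hca-P only. miR-298 had levels of 24.2 ± 2.87 in Hca-F and 17.3 ± 3.03 in Hca-P (log2 fold 0.48), but a second probe of this name read only 12.8 units in Hca-F and 18.0 units in Hca-P. Over the 64 miRNAs measured in both lines, log2 levels correlated across miRNAs with r = 0.86, and the log2 fold had a rank correlation of −0.10 with the mean level. These points share 2 arrays and are descriptions only. A level of 1 or more was reached by 24 miRNAs in Hca-F and 26 in Hca-P, 21 of them in both.

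Encoded neighbours mostly lay on the same side. let-7a (chr13:48538239-48538260, minus strand, copy Mirlet7a-1) and let-7d (chr13:48536078-48536099) had log2 folds of −3.44 and −3.17. let-7f, which RefSeq places between them at chr13:48537889-48537910, was under the minimum in both lines, so the hairpin that lies nearest to let-7a gave no fold. On chromosome 14, miR-17, miR-18a and miR-20a had log2 folds of −1.23, at most −1.08 and −1.02, while miR-19b of the same cluster gave only a bound of at most −0.07, and on chromosome 5 miR-106b and miR-93 of −1.13 and at most −0.23. On chromosome 17, miR-99b*, let-7e and miR-125a-5p lay above 0 together, at 0.93 or more, 0.45 and 0.46, although with all capture probes as reference let-7e and miR-125a-5p came to −0.05 and −0.04. A place above 0 was the common one, held by 53 of all 85 with a fold that has a size. let-7e and miR-125a-5p stood at the median of all 85, which was 0.45. let-7c and let-7b, neighbours on chromosome 15, had log2 folds of −0.60 and 0.18, with let-7b the one that turned sign between scalings. By the names matched here, let-7c, miR-24 and miR-19b have a second gene copy elsewhere. Copies under other names, also of let-7a, were not looked for, and the array does not tell copies apart.

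**Figure D3:**
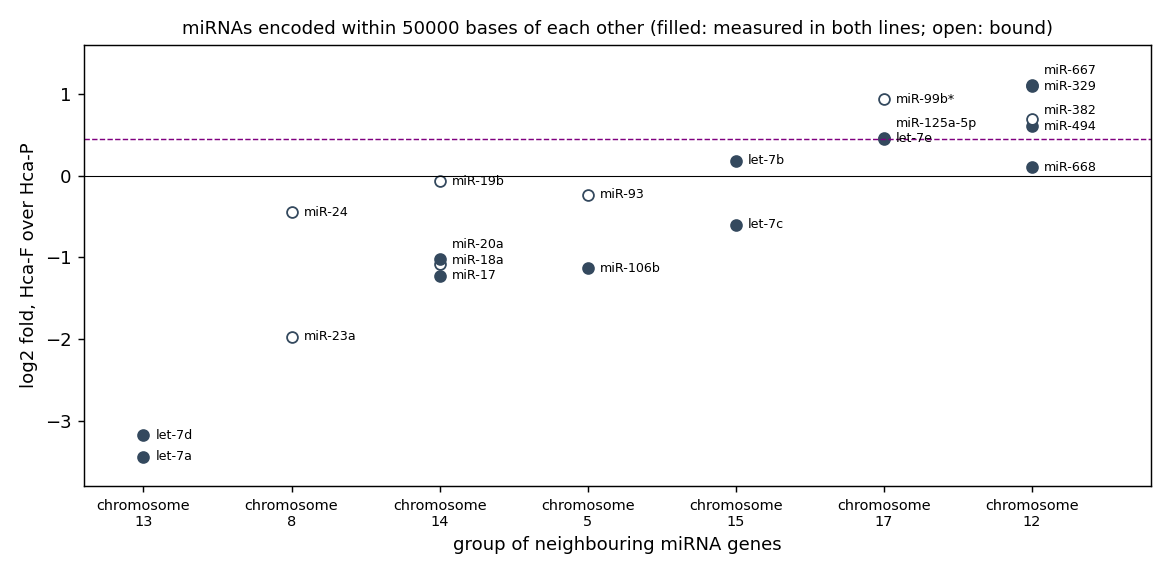
Log2 fold of Hca-F over Hca-P (y axis) for compared miRNAs whose genes lie within 50000 bases of each other, by chromosome (x axis); filled points were measured in both lines, open points are bounds, and the dashed line is the median of all 85 miRNAs. The groups on chromosomes 13, 8, 14 and 5 lie below 0, the one on 15 straddles it, and those on 17 and 12 lie above it under the authors' scaling, which let-7e, miR-125a-5p and miR-668 do not keep when all capture probes set the scale; the bounds of miR-19b and miR-93 went above 0 under other settings.

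H22 and Hepa1-6 give each difference a wider frame. let-7a had levels of 0.475 in Hca-F, 5.15 in Hca-P, 11 in H22 and 0.396 in Hepa1-6, and let-7d of 0.438, 3.96, 5.47 and 0.189 in the same lines. Before scaling, let-7a read 154 units in Hca-F and 160 units in Hepa1-6, so the order of these lines in it depends on the scaling. let-7i, miR-22, miR-23a and miR-18a were under the minimum in both Hca-F and Hepa1-6, so those lines have no order in them. For let-7a, let-7d, let-7i, miR-22, miR-23a and miR-130a, H22 was above both Hca lines, while for miR-17, miR-18a, miR-20a, miR-106b and miR-763 Hca-P was the highest. Among the 20 higher miRNAs Hca-P was the lowest line for 17, which their choice by a low Hca-P fixes in part; among the 54 under 2-fold it was the lowest for 16. The highest line was Hca-F for 8 of the 20, H22 for 6 and Hepa1-6 for 6. miR-713 had levels of 0.565 in Hca-F, 0.174 in Hca-P, 0.491 in H22 and 0.501 in Hepa1-6.

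**Figure D4:**
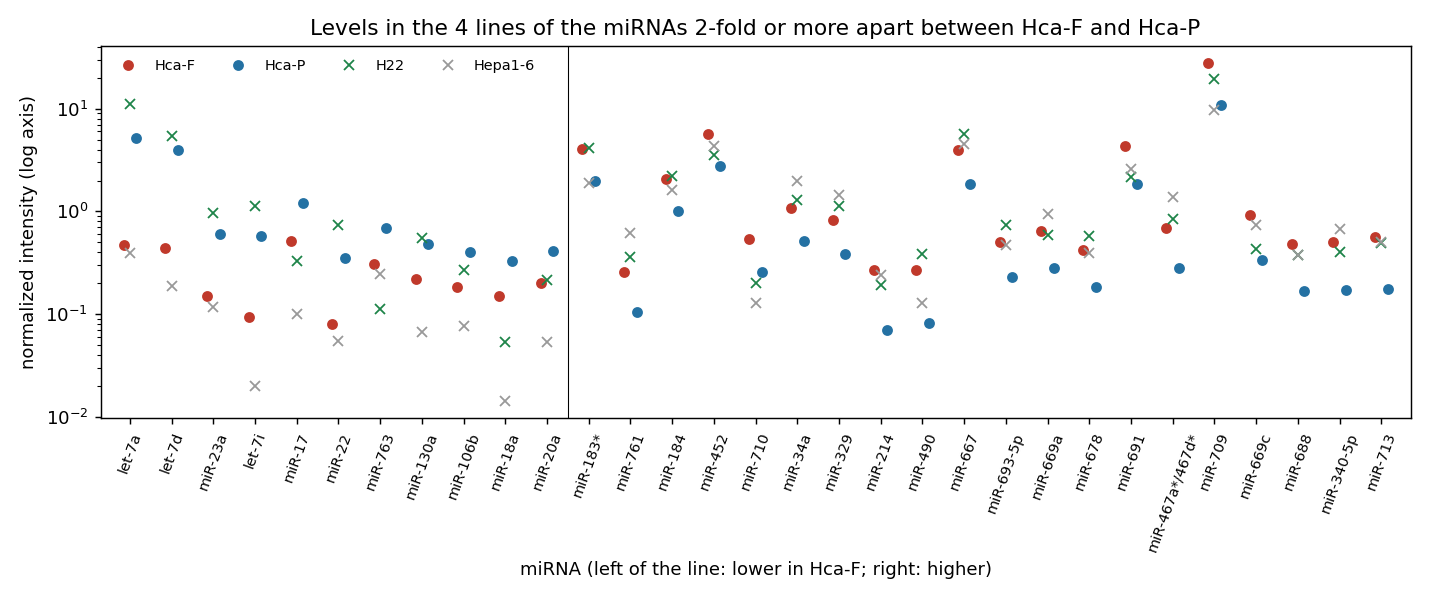
Normalized intensity (log axis) of the 31 miRNAs 2-fold or more apart, in Hca-F, Hca-P, H22 and Hepa1-6, with the 11 lower in Hca-F left of the line and the 20 higher right of it, each in order of the fold; values under the minimum are drawn as read. On the right, where the miRNAs were chosen for a low Hca-P, that line is the lowest of the 4 for 17 miRNAs; on the left, Hca-F and Hepa1-6 are both under the minimum for let-7i, miR-22, miR-23a and miR-18a.

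miRNAs with reported roles in metastasis were few among those compared. Of 11 probes for metastasis-promoting miRNAs, 9 (miR-21, miR-10b, miR-9 and miR-155 among them) were under the minimum in both lines. The 2 compared, miR-222 and miR-103, were under it in Hca-F, so their bounds do not settle whether they were 2-fold apart. Of 29 probes for metastasis-restraining miRNAs, 8 were compared, of which 3 were 2-fold lower (let-7a, let-7d and let-7i) and 1 higher (miR-34a), beside 12.9% and 23.5% of all 85. miR-206, which restrains growth in muscle-derived tumours, lay just under 2-fold, with levels of 0.975 ± 0.112 in Hca-F and 0.496 ± 0.0171 in Hca-P (log2 fold 0.98). Of 27 probes for miRNAs that MYC is known to repress, 9 were compared, and 5 were 2-fold lower (let-7a, let-7d, let-7i, miR-22 and miR-23a) and 1 higher (miR-34a), beside the same shares of all 85. The let-7 miRNAs sit in both lists, so these counts are not separate observations. The miR-17 clusters, which MYC induces, also had 4 of 6 compared 2-fold lower and 0 higher. Any part of MYC in these differences was not tested. The hypoxia miRNA miR-210 had levels of 0.645 ± 0.0322 in Hca-F and 0.428 ± 0.0654 in Hca-P (log2 fold 0.59), with no overlap.

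Most miRNAs that mark other cell types were under the minimum in both lines, with miR-1 and miR-206 of muscle as the brightest exceptions. The leukocyte miRNAs, listed because the cells came out of host ascites, had 5 probes with a summed level of 0.229 in Hca-F and 0.323 in Hca-P. Of these only miR-142-5p reached the minimum, with 23.2 units in Hca-F and 59.2 units in Hca-P, and miR-223 read 22.8 and 13.2 units. The hepatocyte miRNAs miR-122, miR-192 and miR-194 were all under the minimum, miR-122 reading 12.2 units in Hca-F against 19.2 units in Hca-P, so the defining miRNA of liver was not measured in these hepatocarcinoma cells. Erythroid, endothelial, neuronal and epithelial lists had 0 miRNAs at the minimum. Of 5 mesenchymal probes, miR-214 alone reached it. Of 4 muscle probes, with a summed level of 6.03 in Hca-F and 3.56 in Hca-P, miR-1 (5.02 ± 1.92 in Hca-F and 3.01 ± 1.23 in Hca-P) and miR-206 did, while miR-133a, which is made from the same transcripts as miR-1, read 2.75 units in Hca-F and 11.2 units in Hca-P. The part of these cell types in any difference was not tested.

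Other small RNAs on the array were under 2-fold apart where measured. U6 snRNA had a level of 3.89 ± 0.407 in Hca-F and 4.6 ± 0.420 in Hca-P on its brighter probe (log2 fold −0.24). The small nucleolar RNA probe SNORD3@, named for human, lay on the other side with 0.815 ± 0.110 in Hca-F and 0.527 ± 0.326 in Hca-P (log2 fold 0.63), and SNORD2 was at least 1.36-fold higher. The names miR-720, miR-801 and miR-805, which are now regarded as fragments of other RNAs, had log2 folds of −0.50, −0.66 and 0.10. They are kept among the 85 as the files name them.

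The values nearest to the limits show how the counts depend on them. Just inside 2-fold on the higher side were miR-183* and miR-761, and just outside were miR-206 (log2 fold 0.98) and miR-468 (0.96). Just inside on the lower side were miR-20a and miR-18a, and just outside were miR-675-5p and, by its bound only, miR-222. At the minimum of 50 units, miR-103 was just inside with 50.2 units in Hca-P and miR-34c with 52.8 units in Hca-F, and miR-27a and miR-16 were just outside with 49.5 and 49.0 units in Hca-P.

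The split between higher and lower depends on the scaling. With every capture probe of any species as reference, 3 miRNAs were 2-fold higher and 21 lower in Hca-F, without scaling 6 and 15, with the mouse miRNAs of both lines as reference 6 and 15, and after quantile scaling 12 and 12. Scaling each array on its 75th percentile of mouse probes gave 23 and 10. Of the 11 lower miRNAs, 10 stayed 2-fold lower under all 5, the exception being miR-20a, whereas of the 20 higher only miR-713, miR-340-5p and miR-688 stayed 2-fold higher. Each of the 5 except the 75th percentile lowered the median log2 fold, from 0.45 to between −0.05 and 0.19. A downward shift removes higher calls and keeps lower ones, so these counts do not show a steadier lower set. The lower set also fell, from 11 to 5, without background subtraction and with normexp. No member of either set turned direction under any of the 16 alternatives that gave it a value, which were 15 for miR-214, miR-490 and miR-761.

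**Figure D5:**
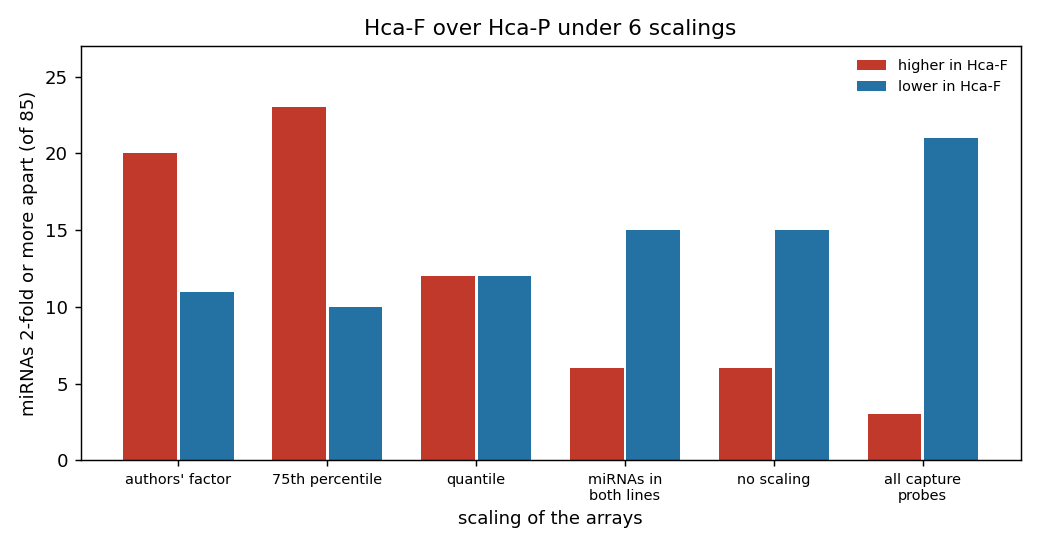
Number of miRNAs 2-fold or more higher or lower in Hca-F than in Hca-P (y axis, of 85 compared) under the authors' factor and 5 other scalings (x axis). Higher miRNAs outnumber lower ones, 20 to 11, under the authors' factor, and lower ones outnumber higher ones, 21 to 3, when all capture probes set the scale.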

How the data were processed

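TRIzol-isolated total RNA of each line carried the Hy3 label and was hybridized to a miRCURY LNA array, which catches mature miRNAs with locked nucleic acid probes. Per the labels, a GenePix scanner read the arrays and GenePix Pro extracted the spots. Spot intensity, background-subtracted intensity and normalized intensity were deposited, all linear. The authors took the mean of repeated spots and divided it by an array's median over miRNAs at 50 or more in every sample, per the labels. The deposited normalized intensity equalled the value recomputed from the spots.

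From these intensity values, folds were taken on the log2 scale between 4-spot means, after raising values under 50 units to 50. Spots of 1 array are technical, so no test was made. The number of arrays, 1 per line, limits the precision. Where 2 probes carried 1 name, the brighter was kept. Array names were paired with RefSeq arms of GRCm38.p6 through older naming, and 65 of the 85 miRNAs had a sequence. Calculations used Python 3.11.15 with numpy 2.4.6, pandas 2.3.3 and scipy 1.17.1, and R 4.3.3 with limma 3.58.1 for the normexp alternative (offset 50). The fold calls were tested on simulated data, with independent spots and changes in brighter probes only. That setting does not show how calls near the minimum perform.

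The miRNAs named were the 10 largest measured folds and 8 largest bounds in each direction, the 10 nearest to 0 at a level of 1 or more, the 8 brightest per line, those next to each threshold, and list members. Members and lists were chosen with earlier results of these data known. Alternatives covered scaling, background, detection minimum, spot averaging, fold threshold, probe choice and the authors' value table. Other families looked at (miR-15 and miR-16, miR-29, miR-30, miR-26, miR-21, miR-181 and miR-290-295) had 0 miRNAs at the minimum in either line.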

Additional observations from a re-analysis of the deposited data

Results flagged for a closer look

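Signal at or above the detection minimum in Hca-F also came from probes that the comparison did not use: 262 of 1595 probes not designed for mouse, 15 of 77 miRPlus probes (the maker's own sequences) and 17 of 109 probes marked obsolete, against 254, 14 and 17 in Hca-P. The 85 empty positions stayed at or under 7.75 units in Hca-F and 2 units in Hca-P. Over the 288 probes not designed for mouse with signal in either line, 55 were 2-fold higher and 25 lower in Hca-F, with a median log2 fold of 0.56. Over the 15 miRPlus probes the counts were 2 and 2 (median −0.24), and over the 17 obsolete probes 4 and 5 (median −0.13).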

How the results depend on the processing

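All 31 miRNAs 2-fold apart kept their direction under the 16 alternatives, or the 15 that gave a value for miR-214, miR-490 and miR-761. The median log2 fold of 0.45 became −0.050 with all capture probes as reference, 0.16 without scaling, 0.19 with the miRNAs of both lines as reference, 0.15 after quantile normalization, 0.51 with the 75th percentile, 0.086 and 0.17 with minimums of 30 and 100 units (109 and 64 miRNAs compared), 0.38 with normexp, 0.52 with the median of spots, and 0.55 and 0.25 without the third and the fourth spot position. The 20 higher miRNAs became 3 with all capture probes, 6 without scaling, 6 with the miRNAs of both lines, 12 after quantile normalization, 12 and 3 at minimums of 30 and 100 units, 8 without background subtraction, 8 with normexp and 12 without the fourth spot position. The 11 lower became 21 with all capture probes, 18 at a minimum of 30 units, 5 without background subtraction and 5 with normexp; the 31 apart became 12 at a minimum of 100 units, 13 without background subtraction and 13 with normexp. The 11 with a log2 fold within 0.32 of 0 became 17 without scaling, 17 with all capture probes and 19 at a minimum of 30 units. At 1.5-fold 55 miRNAs were apart, 35 higher and 20 lower; at 3-fold 5 were, 1 higher and 4 lower. The cause of these shifts was not tested, except that the fold threshold and the minimum set by construction which miRNAs can count. Among 1646 values of single miRNAs and lists, 502 moved by more than the spot spread, and 0 of those 2-fold apart changed sign. For bounds and lists, the median spot SD of the miRNAs measured in both lines stood in for a spread of their own. Values under 50 units in 1 line limit 21 of the 85 folds to bounds. No paired analysis was possible because each line has 1 array.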
